A study of Mus musculus with 16 samples.

Results

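The genes described here are 10 transcripts of the integrated stress response and the unfolded protein response, chosen by name from the 24411 genes of the count table and not by a threshold on their values. They are Atf4, Ddit3, Trib3, Chac1, Asns and Ppp1r15a, grouped here as the arm that follows phosphorylation of eIF2, and Hspa5, Hsp90b1, Xbp1 and Herpud1, grouped as the arm that serves the endoplasmic reticulum (ER). All 10 were found in the table. They were measured by RNA sequencing of muscle stem cells (MuSCs), the Pax7-expressing cells that rebuild myofibers, in 16 libraries of 4 groups with 4 libraries each.

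The groups were control and TRF2MuSC-cKO MuSCs, each taken without injury or at 3 days post injury (3 DPI). Injury was by 10 µl of notexin, a snake toxin that destroys myofibers, in the tibialis anterior. TRF2, encoded by Terf2, is a telomere-binding protein. The sample records call the genotypes Wildtype and TRF2 knockout. In TRF2MuSC-cKO mice a floxed TRF2 allele is removed by a Cre recombinase that is driven by Pax7 and activated by tamoxifen, so the deletion is meant for cells that expressed Pax7 when tamoxifen was given. All mice were on a C57BL/6 background, and the methods start tamoxifen at 8 to 10 weeks of age with 7 injections. Whether the controls of these libraries carried the Cre or received tamoxifen, the age and sex of each mouse, and the time from tamoxifen to isolation are not given for the sequencing in the sources used here. Cells were sorted as viable, negative for CD45, CD31, CD11b and Sca1 and positive for α7-integrin with VCAM or CD34. The series describes the 4 libraries of a group as biological replicates.

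When unfolded proteins build up in the ER, 3 sensors respond. PERK phosphorylates eIF2, which lowers general translation and favors translation of ATF4. ATF4 then induces genes of amino acid supply and stress, among them Ddit3, Trib3, Chac1 and Asns, and Ppp1r15a closes the loop by directing a phosphatase to eIF2. IRE1 splices the Xbp1 transcript, and ATF6 is cut to release a transcription factor, and both raise ER chaperones such as Hspa5 and Hsp90b1. Much of this regulation acts on splicing, translation and protein cleavage. Counts per gene do not separate the spliced from the unspliced Xbp1 transcript, and they do not measure ATF4 protein, so what follows concerns transcript abundance alone.

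The promoters of the members were searched for the elements that the factors of these arms are known to bind. The ones with a match to an ER stress element are shown, a choice made after the values of these genes were seen. Ppp1r15a, also called after injury in control MuSCs, held no match and is not shown. Promoters are those of RefSeq on GRCm38.p6, from 250 bases before to 50 after the annotated start, and positions count from that start as base 0. Capitals mark matches, found on both strands, to the ER stress element (ERSE, CCAAT and CCACG with 9 bases between them), to ERSE-II (ATTGG and CCACG with 1 base between them) and to the C/EBP-ATF response element (CARE, TGATGNAA). The Hspa5 promoter lies at chr2:34771840-34772139 on the plus strand, that of Hsp90b1 at chr10:86705395-86705694 on the minus strand and that of Herpud1 at chr8:94386179-94386478 on the plus strand, each given 5′ to 3′ in the direction of transcription.
Hspa5: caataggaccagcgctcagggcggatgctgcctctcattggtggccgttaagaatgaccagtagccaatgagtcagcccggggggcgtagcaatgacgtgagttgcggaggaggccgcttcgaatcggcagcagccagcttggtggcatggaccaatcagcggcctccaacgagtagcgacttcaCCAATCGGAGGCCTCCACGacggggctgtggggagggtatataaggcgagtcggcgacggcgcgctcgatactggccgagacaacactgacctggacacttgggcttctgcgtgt
Hsp90b1: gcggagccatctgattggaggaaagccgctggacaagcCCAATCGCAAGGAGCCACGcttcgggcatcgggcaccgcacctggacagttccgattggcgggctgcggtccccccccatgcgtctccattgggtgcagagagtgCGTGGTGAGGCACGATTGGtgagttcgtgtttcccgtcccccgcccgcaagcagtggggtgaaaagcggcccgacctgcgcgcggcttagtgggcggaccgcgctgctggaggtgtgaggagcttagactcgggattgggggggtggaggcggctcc
Herpud1: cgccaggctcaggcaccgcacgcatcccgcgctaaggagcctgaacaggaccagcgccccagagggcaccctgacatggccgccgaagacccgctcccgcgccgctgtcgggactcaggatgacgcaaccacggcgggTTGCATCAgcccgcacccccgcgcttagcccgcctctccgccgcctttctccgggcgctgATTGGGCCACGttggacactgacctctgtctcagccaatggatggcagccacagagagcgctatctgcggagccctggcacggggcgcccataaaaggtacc

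Hspa5 held 1 ERSE, from -65 to -47, and Hsp90b1 held 2, from -212 to -194 and, on the opposite strand, from -107 to -89. Of 32851 mouse promoters of the same length, 39 (0.119%) held an ERSE. Herpud1 held an ERSE-II from -52 to -42, an element found in 12 promoters (0.0365%), together with a CARE from -112 to -105. A CARE was also present in Chac1 from -193 to -186 (TTGCATCA), in Asns from -23 to -16 (TGATGAAA) and in Trib3 from 14 to 21 (TTACATCA), and 1304 of all promoters (3.97%) held one. The 4 remaining promoters, those of Atf4, Ddit3, Xbp1 and Ppp1r15a, held none of these letters in this window. The elements were chosen because factors of these arms are known to bind them. Matches in genes of these arms are therefore no independent finding. The shares over all promoters are given for scale, and no enrichment was tested. A match of letters is a description of the sequence and was not tested as a binding site.

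**Figure D1:**
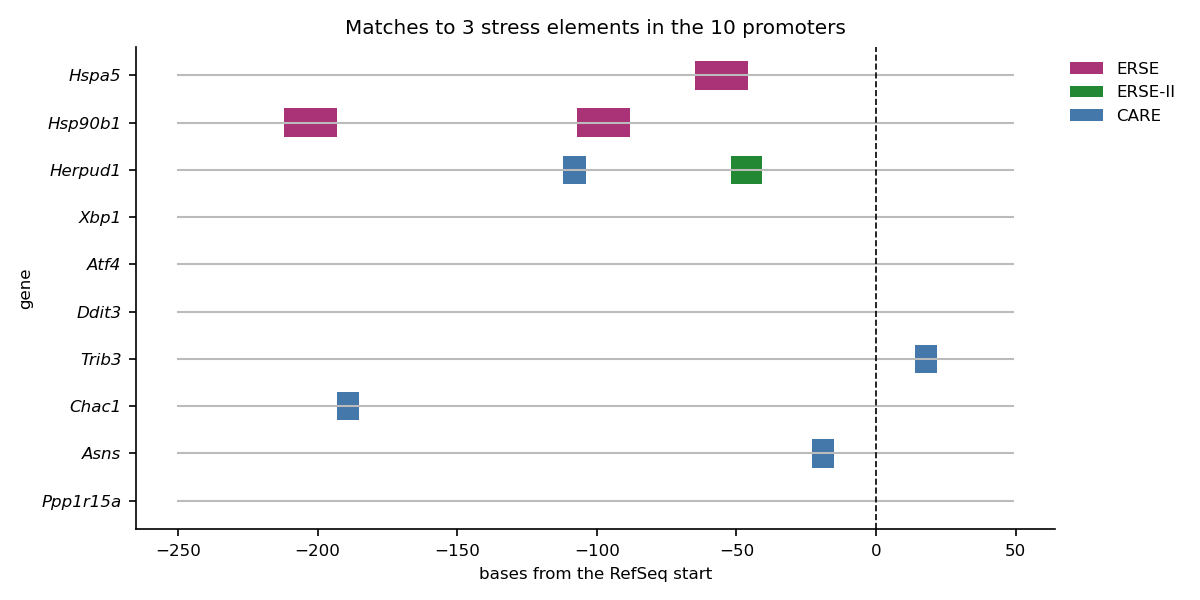
Matches to ERSE, ERSE-II and CARE along the 10 promoters, with the distance from the RefSeq start in bases on the x axis and 1 gene per row. Hspa5 and Hsp90b1 hold ERSE matches, Herpud1 holds an ERSE-II and a CARE, and Trib3, Chac1 and Asns hold 1 CARE each.

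The libraries held 620506 to 1351130 estimated counts. Library 3 of TRF2MuSC-cKO MuSCs at 3 DPI had counts in 15387 genes, whereas the other 15 libraries had counts in 19996 to 21879, and the member estimates described that its removal moved by over 1.5 times are given with and without it. Terf2 itself was 76.4 ± 12.5 CPM (read counts scaled to a common library size, the usual CPM unit, on 1 scale for all libraries, mean ± SD, n = 4) in uninjured controls and 45.6 ± 13.2 CPM in the uninjured libraries labelled TRF2MuSC-cKO, with no overlap (log2 fold change -0.62, SE 0.27, adjusted p = 0.199, edgeR). At 3 DPI it was 43.8 ± 6.1 CPM in controls and 57.8 ± 28.4 CPM in the libraries labelled TRF2MuSC-cKO, which goes against the direction of the label, and the reads of the deleted part were not separated from the rest. The genotype names at 3 DPI are therefore those of the labels. The library descriptions also carry 5 codes whose meaning is not given in the sources used here. In uninjured MuSCs no code occurred in both genotypes, so within these 8 libraries code and genotype cannot be told apart. Each other comparison had 1 code in both groups, with 2 against 2 libraries between genotypes at 3 DPI and 2 injured against 1 uninjured library in either genotype, and every comparison was also fitted with the code as a term, an alternative chosen after seeing the data. MuSC markers were present in all groups, at a summed level of 3828 to 5991 CPM in uninjured control, 2353 to 3158 CPM in uninjured TRF2MuSC-cKO, 1062 to 1452 CPM in control at 3 DPI and 539 to 713 CPM in TRF2MuSC-cKO at 3 DPI.

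Per kilobase of the longest transcript, so that genes can be set against each other, the most abundant of the 10 in uninjured MuSCs was Ppp1r15a, with 309.1 ± 51.7 CPM per kb in control and 239 ± 79.2 CPM per kb in TRF2MuSC-cKO MuSCs. Atf4 followed with 107 ± 30.5, Hspa5 with 99.1 ± 14.6 and Hsp90b1 with 93.6 ± 24.4 CPM per kb in uninjured control MuSCs, levels that did not differ beyond their spread. At 3 DPI the order had turned. Hsp90b1 (200.05 ± 34.1 CPM per kb) and Hspa5 (182 ± 32.8 CPM per kb) led in control MuSCs, and Ppp1r15a stood at 88.7 ± 16.3 CPM per kb. By this length Trib3, Chac1 and Asns were the scarcest in every group. Trib3 lay between 6.08 and 8.03, Chac1 between 6.99 and 8.44 and Asns between 2.00 and 5.39 CPM per kb. With merged exons as the length, Chac1 (8.44) stood above Ddit3 (8.16 CPM per kb) in TRF2MuSC-cKO MuSCs at 3 DPI.

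**Figure D2:**
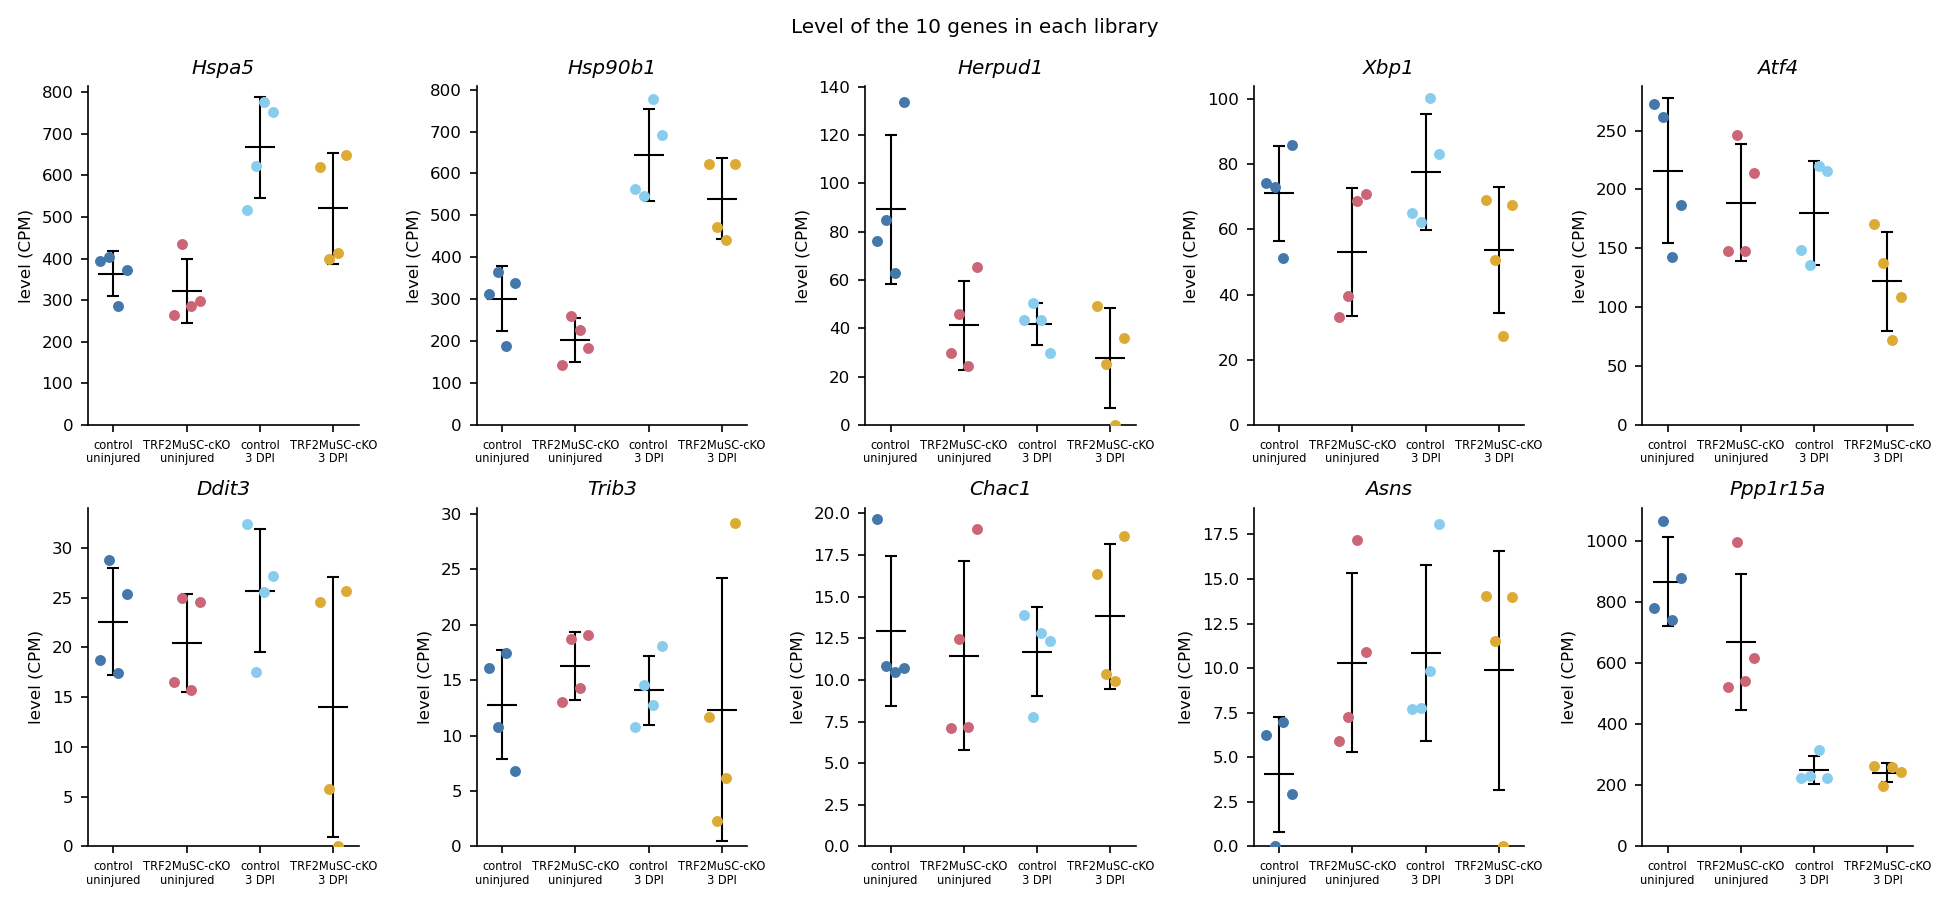
Level of each of the 10 genes in CPM (y axis, from 0, 1 panel per gene) in the 16 libraries, with 1 point per library and the mean with its SD over 4 libraries in black. Hsp90b1 is higher and Ppp1r15a lower at 3 DPI without overlap in both genotypes, Hspa5 is so in control MuSCs only, and Herpud1 is highest in uninjured control MuSCs.

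The first question was whether removal of TRF2 altered these genes in uninjured MuSCs. None of the members was called, where a call needs an adjusted p under 0.02 and a fold change over 1.5. Of the 10, 8 passed the filter on low counts and 0 of these were called by edgeR, limma or DESeq2, against 3.22% of the 14048 genes tested (2.63% lower, 0.584% higher). Chac1 and Asns were too low to be tested. At an unadjusted p under 0.05 stood 2 members, Herpud1 and Hsp90b1, beside 19.5% of all genes. The groups overlapped in all 8, while they did not in 11.6% of all genes (6.64% lower, 4.98% higher).

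Herpud1, which helps remove misfolded proteins from the ER, came nearest to a call. It was 75.9, 84.6, 62.8 and 134 CPM in the uninjured control libraries and 29.6, 45.7, 24.3 and 65.4 CPM in the TRF2MuSC-cKO ones. The groups overlapped by a single pair, since the highest TRF2MuSC-cKO library lay above the lowest control library. The log2 fold change was -0.99 (SE 0.29, 95% interval -1.57 to -0.40, adjusted p = 0.0338, edgeR). It passed the threshold, among others, with no filter on low counts (adjusted p = 0.00797), without control replicate 3 (adjusted p = 0.016) and without TRF2MuSC-cKO replicate 4 (adjusted p = 0.0108). Without control replicate 4, its highest library, the log2 fold change was -0.77 (adjusted p = 0.206). Over all alternatives the adjusted p ran from 0.00797 to 1.00, with the code as a term (log2 fold change -0.38, all 16 libraries) as the highest. Beside it, 7 of 10 MuSC markers were called lower in TRF2MuSC-cKO MuSCs. Macrophage and myeloid markers had estimates above 0 in 5 of 6 tested (median 0.65, 0 called). Their summed level was 68.2 to 114 CPM in control and 121 to 187 CPM in TRF2MuSC-cKO MuSCs. Fibroadipogenic markers lay above 0 in 4 of 5 (median 0.65, 1 called higher and 1 lower). Mural markers did so in 3 of 4 (median 0.69, 1 called higher). The part of these markers in the Herpud1 values was not tested. In bulk RNA, fewer cells of a type and less RNA per cell cannot be told apart.

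Atf4, the central transcription factor of the response, was 273, 261, 143 and 187 CPM in uninjured control MuSCs and 148, 246, 147 and 214 CPM in TRF2MuSC-cKO MuSCs. The ranges overlapped nearly throughout, and the log2 fold change was -0.07 (SE 0.21, 95% interval -0.49 to 0.36, adjusted p = 0.89, edgeR). Ddit3, which encodes the pro-apoptotic factor CHOP, was 17.4 to 28.8 CPM in control and 15.7 to 24.9 CPM in TRF2MuSC-cKO MuSCs (log2 fold change -0.02, 95% interval -0.86 to 0.82). Hspa5, the ER chaperone BiP, was 286 to 403 CPM and 265 to 435 CPM (log2 fold change -0.05, 95% interval -0.45 to 0.34). The intervals of Atf4 and Hspa5 are the narrower ones, whereas those of Ddit3 and of Trib3, a pseudokinase that restrains ATF4 (log2 fold change 0.47, 95% interval -0.58 to 1.51), are wide. The signs of the Atf4, Ddit3 and Hspa5 estimates turned positive when libraries were scaled by size alone.

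Hsp90b1, the ER chaperone GRP94, was 314, 366, 188 and 339 CPM in uninjured control and 142, 261, 228 and 183 CPM in TRF2MuSC-cKO MuSCs, and the groups overlapped (log2 fold change -0.44, SE 0.21, 95% interval -0.86 to -0.02, adjusted p = 0.23, edgeR). Xbp1 was 51.2 to 85.8 CPM and 33.1 to 70.8 CPM (log2 fold change -0.31, SE 0.28, adjusted p = 0.568). Ppp1r15a was 743 to 1068 CPM and 524 to 998 CPM (log2 fold change -0.25, SE 0.20, adjusted p = 0.517). The Ppp1r15a estimate was -0.51 without TRF2MuSC-cKO replicate 2 and -0.07 with library size alone, and was called in neither. The untested genes stayed low. Chac1, a glutathione-degrading enzyme, was 10.5 to 19.7 CPM in control and 7.10 to 19.1 CPM in TRF2MuSC-cKO MuSCs, and Asns, asparagine synthetase, was 0 to 6.98 CPM and 5.92 to 17.2 CPM, where a count of 0 allows up to 2.701 CPM in the control library concerned.

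In the wider pathway, 118 genes in 8 lists, the calls among 111 tested genes in uninjured MuSCs were 5 lower and 3 higher, beside 3.22% called among all genes. Estimates were below 0 for 83 of the 111, among them 15 of 17 ER chaperones and folding enzymes and 11 of 12 tRNA synthetases, and 29 had an unadjusted p under 0.05, beside 19.5% of all genes. In amino acid supply and among the partners and stress factors, both of the ATF4 arm, estimates lay above 0 for 10 of 15 and 9 of 15 tested genes (medians 0.20 and 0.18). The median log2 fold change of all 111 was -0.30 beside 0.06 over all genes. Cell isolation response genes, known to respond to tissue dissociation, had estimates below 0 in 14 of 17, with 3 called lower and a median of -0.24. Macrophage, fibroadipogenic and mural markers were mostly above 0, as given above. Schwann markers were above 0 in 3 of 3 tested (median 0.49) and endothelial markers below 0 in 4 of 6 (median -0.27). The part of all these lists in the pathway values was not tested. Ddit4, an inhibitor of mTORC1, was 312 to 521 CPM in control and 94.5 to 150.3 CPM in TRF2MuSC-cKO MuSCs (log2 fold change -1.54, SE 0.21, adjusted p = 3.7e-06, edgeR). The amino acid transporter Slc7a5 fell by 1.26 on the log2 scale (SE 0.25, adjusted p = 0.000733). The other genes called lower were Ube2j1 (-1.13) and Sec61a1 (-0.88), of ER-associated degradation and of the ER translocon, and P4hb (-0.88), a protein disulfide isomerase.

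The genes called higher in uninjured TRF2MuSC-cKO MuSCs were Gdf15, a stress cytokine (log2 fold change 1.69, SE 0.38), Sesn2, a nutrient-sensing inhibitor of mTORC1 (1.48, SE 0.38), and Bbc3, which encodes the cell-death factor PUMA (1.30, SE 0.29). Each was above every control library. All 3 are known targets of p53 as well as of the stress response, and the part of p53 in these values was not tested. The count of 8 calls was 4 without TRF2MuSC-cKO replicate 1 and 5 without control replicate 1, 3 or 4 or TRF2MuSC-cKO replicate 3. Fitted with all 16 libraries it was 1, and with the rescaled table or the code as a term it was 0. With the code as a term the estimates of Slc7a5, P4hb and Bbc3 changed sign. Sesn2, Ube2j1, P4hb and Sec61a1 were not called under 9 to 11 of the 17 alternatives.

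At 3 DPI the same question was asked of MuSCs responding to injury. No member was called by edgeR, limma or DESeq2, and none of the 10 tested reached an unadjusted p under 0.05. The background in this comparison was 0% called by edgeR among 14559 genes, of which 1362 (9.36%) had an unadjusted p under 0.05, and limma and DESeq2 called 28 and 22 genes. The groups overlapped in all 10 members, while they did not in 7.65% of all genes (4.35% lower, 3.3% higher). The common biological coefficient of variation was 0.495 here, with TRF2MuSC-cKO replicate 3 included, and 0.297 in the uninjured comparison. Without that replicate edgeR called 13 genes lower and 3 higher at 3 DPI, none of them a member.

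Atf4 was 148, 136, 220 and 216 CPM in control libraries at 3 DPI and 171, 137, 71.9 and 108 CPM in TRF2MuSC-cKO libraries (log2 fold change -0.52, SE 0.29, 95% interval -1.15 to 0.11, adjusted p = 0.593, edgeR). The lowest value is that of replicate 3, and without it the log2 fold change was -0.36. Within the code present in both genotypes, 2 libraries each, the mean was 154 CPM in TRF2MuSC-cKO and 142 CPM in control MuSCs, and with the code as a term the log2 fold change was 0.13. Hspa5 was 517, 622, 777 and 751 CPM in control and 620, 398, 414 and 649 CPM in TRF2MuSC-cKO MuSCs (log2 fold change -0.32, 95% interval -0.82 to 0.19, and -0.25 without replicate 3). Hsp90b1 was 564, 546, 777 and 692 CPM and 623, 473, 441 and 622 CPM (log2 fold change -0.21, 95% interval -0.67 to 0.24, and -0.15 without replicate 3). For both chaperones the groups overlapped. Ppp1r15a was nearly level, at 224 to 318 CPM and 198 to 264 CPM (log2 fold change 0.00, 95% interval -0.46 to 0.47, and -0.06 without replicate 3).

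Ddit3, Asns and Herpud1 each had a count of 0 in TRF2MuSC-cKO replicate 3 at 3 DPI, where a count of 0 allows up to 3.72 CPM. In the 3 other TRF2MuSC-cKO libraries Ddit3 was 24.5, 5.77 and 25.6 CPM, and the lowest of these lay below the 17.5 to 32.4 CPM of controls. Herpud1 was 49.1, 25.4 and 36.1 CPM in them, beside 29.6 to 50.6 CPM in controls. The log2 fold changes with and without that library were -0.83 and -0.43 for Ddit3 and -0.56 and -0.15 for Herpud1. Without TRF2MuSC-cKO replicate 1 they were -1.25 for Ddit3 and -0.99 for Herpud1. Without its replicate 4 they were -1.30 and -0.72, and none of these was called. Trib3, at 10.8 to 18.1 CPM in controls, spread from 2.31 to 29.1 CPM in TRF2MuSC-cKO MuSCs, which are the lowest and the highest of the 8 libraries at 3 DPI.

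Across the pathway lists 0 of 114 genes tested were called at 3 DPI by edgeR (8 at an unadjusted p under 0.05), 0 by DESeq2 and 1, the glycyl-tRNA synthetase gene Gars, by limma. All 18 genes of the list of ER chaperones and folding enzymes had estimates below 0, with a median of -0.45 and none called, beside 0.00 over all genes. The median was -0.27 without replicate 3 and -0.18 with the code as a term. Estimates were also below 0 for 10 of 10 MuSC markers (median -0.66), 10 of 10 macrophage markers (-0.55), 15 of 17 cell isolation response genes (-0.42, with 4 at an unadjusted p under 0.05) and 9 of 10 proliferation genes (-0.43), none called by edgeR, and the part of these in the chaperone values was not tested.

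**Figure D3:**
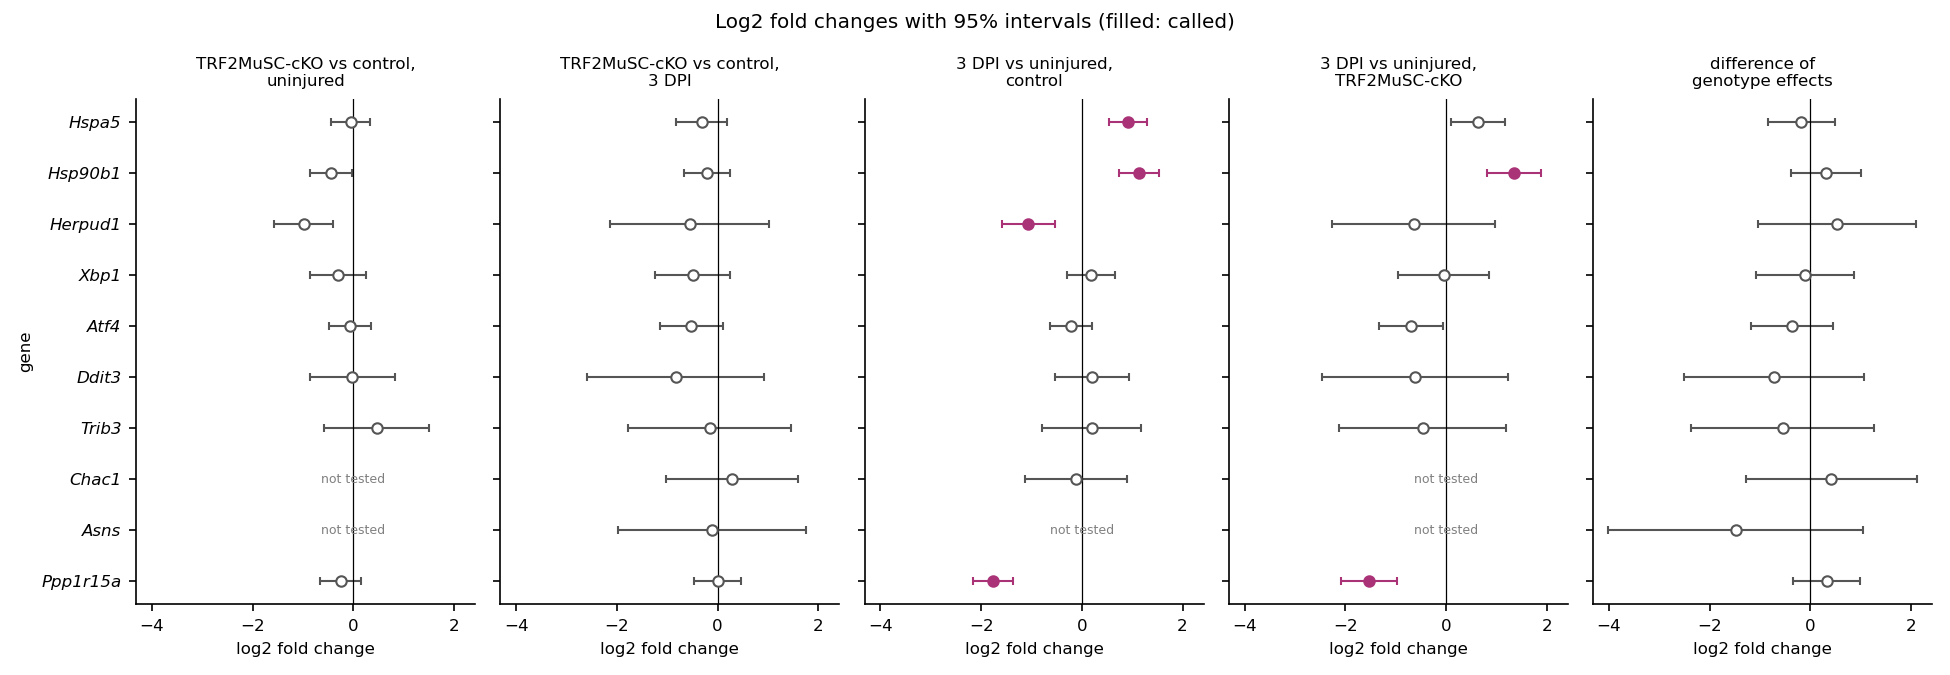
Log2 fold changes of the 10 genes (x axis) with their 95% intervals from edgeR in 5 comparisons, filled where called. The calls lie only in the comparisons of 3 DPI with uninjured muscle, with 4 in control and 2 in TRF2MuSC-cKO MuSCs.

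Injury itself separated the members. In control MuSCs the ER chaperones Hspa5 and Hsp90b1 rose, Ppp1r15a and Herpud1 fell, and Atf4, Ddit3, Trib3, Chac1 and Xbp1 were not called. Of 9 members tested 4 were called, with Asns too low to test, beside 20.2% of the 15356 genes tested (9.46% lower, 10.8% higher). In all 4 the groups did not overlap, as in 24.5% of all genes (11.8% lower, 12.7% higher), and these 4 were also the ones at an unadjusted p under 0.05, as were 32.5% of all genes.

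Hspa5 stood at 393, 403, 286 and 373 CPM in uninjured control libraries against the 517 to 777 CPM given above for 3 DPI, so that every injured library was higher than every uninjured one. The log2 fold change was 0.92 (SE 0.19, 95% interval 0.54 to 1.30, adjusted p = 0.000173, edgeR). Hsp90b1 rose by 1.14 on the log2 scale (SE 0.20, 95% interval 0.74 to 1.54, adjusted p = 1.3e-05), from 302 ± 78.5 to 645 ± 110 CPM (mean ± SD, n = 4). Ppp1r15a fell by 1.76 (SE 0.19, 95% interval -2.15 to -1.37, adjusted p = 6.7e-10). Its uninjured libraries were at 781, 1068, 743 and 881 CPM and its injured ones at 224, 231, 318 and 224 CPM. These 3 calls held under all 17 alternatives, the code as a term included.

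Herpud1 went the other way from the chaperones. It was 43.2, 50.6, 43.3 and 29.6 CPM at 3 DPI, below the 62.8 to 134 CPM of uninjured controls (log2 fold change -1.06, SE 0.26, 95% interval -1.58 to -0.54, adjusted p = 0.00142, edgeR). The call was lost without control uninjured replicate 4, its highest library (-0.84, adjusted p = 0.0234), and with all 16 libraries in 1 fit (adjusted p = 0.23). With the code as a term it was called at -1.79 (adjusted p = 0.00174). Xbp1 was 64.9, 62.2, 100.3 and 83.1 CPM at 3 DPI (log2 fold change 0.18, 95% interval -0.30 to 0.65), and Atf4 changed by -0.22 (95% interval -0.64 to 0.21, adjusted p = 0.535). The estimates for Ddit3 (0.21, 95% interval -0.53 to 0.95), Trib3 (0.19, 95% interval -0.79 to 1.18) and Chac1 (-0.12, 95% interval -1.14 to 0.91) left room for changes of either sign.

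Of 114 pathway genes tested in control MuSCs 22 were called higher and 8 lower after injury (11 and 3 with the code as a term). Over all genes the shares were 10.8% higher and 9.46% lower. Of the 22, 12 belonged to the 18 ER chaperones and folding enzymes, none of which was called lower. The median of that list was 1.00 beside 0.07 over all genes, and 8 of the 18 were called with the code as a term. Sdf2l1, a cofactor of BiP, rose from 0.893 to 10.5 CPM in uninjured libraries to 49.2 to 64.2 CPM (log2 fold change 3.17, SE 0.41, adjusted p = 3.3e-08, edgeR). Calreticulin (Calr) rose by 2.18, the disulfide isomerases Pdia6 and Pdia3 by 1.85 and 1.82, and the secreted ER protein Manf by 1.69. Manf was not called with all 16 libraries in 1 fit, where the list had 6 calls. Edem1 (1.79) and Edem2 (1.66), lectins of ER-associated degradation, were the 2 of 14 tested genes of their list called higher.

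Of 12 eIF2 kinases and regulators none was called in control MuSCs after injury by edgeR or DESeq2 and 1 by limma, with 3 at an unadjusted p under 0.05 in edgeR. Of 12 tRNA synthetases 2 were called higher, and of 15 tested genes of amino acid supply 1 was higher and 2 lower. Over all genes 10.8% were called higher and 9.46% lower, and neither list was tested against these shares. Among 15 tested partners and stress factors, 4 were lower and 2 higher. Ddit4 fell by 2.49 (SE 0.22), the lipoprotein receptor Vldlr by 1.61, Slc7a5 by 1.09, the transcription factor Atf5 by 1.09, the glutamine transporter Slc38a2 by 0.83 and Cebpb, which encodes a C/EBP factor, by 0.64. Cebpb was not called under 9 of the 17 alternatives, and the calls of Slc7a5, Slc38a2, Atf5 and Creb3l2 were lost with the code as a term and, Atf5 excepted, with all 16 libraries in 1 fit. Gdf15 rose by 2.99 (SE 0.29, adjusted p = 1.4e-11). Of the sensor list, Mbtps1, the protease that cuts ATF6, fell by 1.39 and Creb3l2 by 1.07, and Creb3 rose by 1.03 (SE 0.31, adjusted p = 0.0113).

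**Figure D4:**
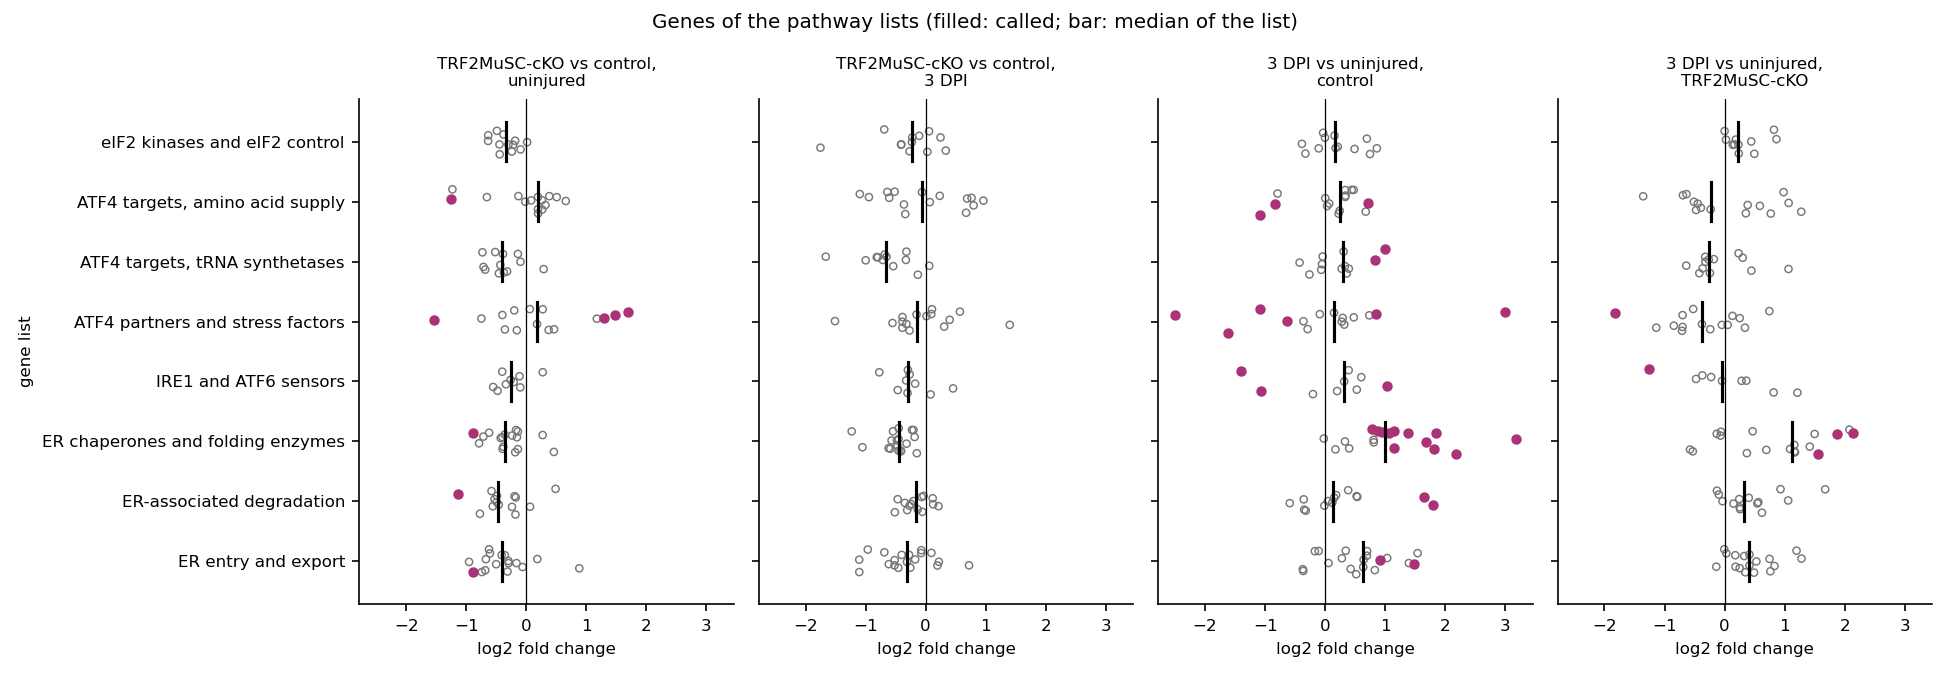
Log2 fold changes (x axis) of the tested genes of 8 pathway lists (rows) in 4 comparisons, 1 point per gene, filled where called, with the median of each list as a bar. In control MuSCs after injury 12 of 18 ER chaperones and folding enzymes are called higher.

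Other genes moved with injury, and their values stand beside these results. Of 17 genes known to respond to tissue dissociation, such as Fos, Jun and Egr1, 15 were lower and 1 higher at 3 DPI in control MuSCs, and their summed level was 71874 to 92456 CPM in uninjured and 9631 to 11952 CPM in injured libraries. Ppp1r15a shares this direction. Macrophage and myeloid markers were higher in 10 of 10, with a summed level of 68.2 to 114 CPM and then 5149 to 6627 CPM, although the sort was negative for CD45 and CD11b. In uninjured controls C1qb was at 0 in 1 library and Tyrobp in 2. Proliferation genes were higher in 9 of 10 (219 to 251 CPM, then 933 to 1282 CPM), fibroadipogenic markers in 5 of 6, and MuSC markers lower in 10 of 10. The part of these in the rise of the chaperones or the fall of Ppp1r15a was not tested. In bulk RNA, a change within MuSCs and a change in the mix of cells cannot be told apart.

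**Figure D5:**
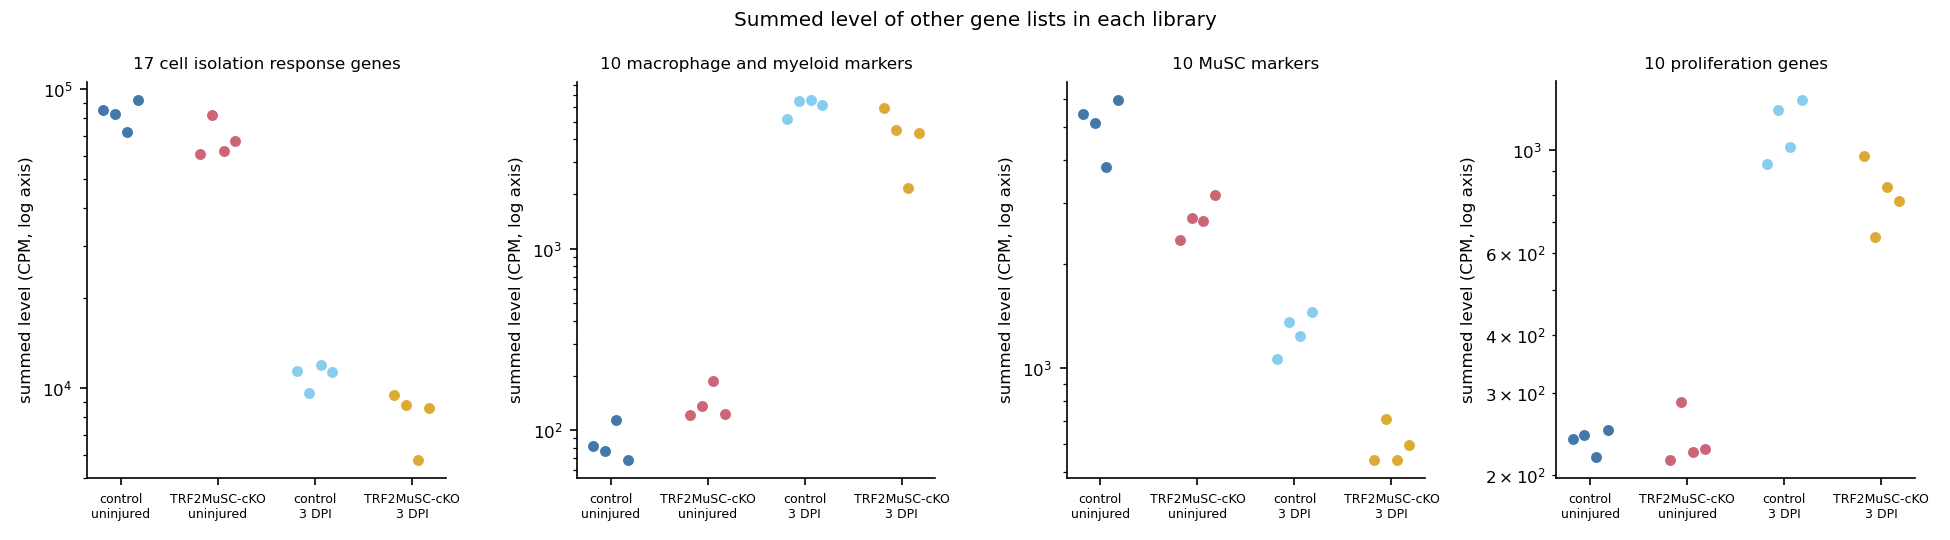
Summed level in CPM (log y axis) of 4 gene lists in the 16 libraries, 1 point per library. Cell isolation response genes and MuSC markers are lower, and macrophage markers and proliferation genes higher, at 3 DPI in both genotypes.

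In TRF2MuSC-cKO MuSCs injury gave the same directions for the strongest members. Of 8 members tested 2 were called, Hsp90b1 higher and Ppp1r15a lower, beside 4.04% of 14578 genes (1.61% lower, 2.43% higher). The groups of both did not overlap, as in 14.1% of all genes (7.87% lower, 6.19% higher). At an unadjusted p under 0.05 stood 4 of the 8, the others being Hspa5 and Atf4, beside 16.4% of all genes. Hsp90b1 rose by 1.34 (SE 0.25, 95% interval 0.81 to 1.88, adjusted p = 0.00412, edgeR), with its lowest injured library at 441 CPM and its highest uninjured one at 261 CPM. Ppp1r15a, at 524, 998, 541 and 617 CPM before and 264, 198, 262 and 243 CPM after injury, fell by 1.53 (SE 0.25, 95% interval -2.08 to -0.98, adjusted p = 0.00178).

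Both calls held without replicate 3 at 3 DPI (Hsp90b1 1.45, adjusted p = 3.9e-05; Ppp1r15a -1.55, adjusted p = 3.7e-05). With the code as a term neither was called (Hsp90b1 1.498, adjusted p = 0.276; Ppp1r15a -1.33, adjusted p = 0.292). Among the fits that left out a library or used the rescaled table, Hsp90b1 lost its call without TRF2MuSC-cKO uninjured replicate 1 (adjusted p = 0.0217) or 4 (0.0306) or 3 DPI replicate 1 (0.0204), and with the rescaled table (0.0449), with log2 fold changes of 1.19 to 1.29. Hspa5 was 265, 435, 286 and 298 CPM before and 620, 398, 414 and 649 CPM after injury (log2 fold change 0.63, SE 0.25, 95% interval 0.09 to 1.17, adjusted p = 0.204). It was not called under any alternative, with 0.0391 as the lowest adjusted p, without replicate 3. Atf4 had a log2 fold change of -0.69 (SE 0.30, adjusted p = 0.254) and Xbp1 one of -0.05 (SE 0.42), and without replicate 3 these were -0.49 and 0.20. Herpud1, at -0.64 (SE 0.75) and at -0.20 without replicate 3, was at 24.3 to 65.4 CPM before injury, a range that takes in the 29.6 to 50.6 CPM of controls after it.

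Of 111 pathway genes tested in TRF2MuSC-cKO MuSCs, 3 were called higher and 2 lower after injury. These counts are close to the shares over all genes, 2.43% higher and 1.61% lower. The genes called higher were the chaperone Calr (log2 fold change 2.13, SE 0.27) and the isomerases Pdia3 (1.87, SE 0.25) and Pdia4 (1.55, SE 0.31). The genes called lower were Vldlr (-1.82) and Mbtps1 (-1.26). With the code as a term none of the 5 was called by edgeR (11 of 111 at an unadjusted p under 0.05), and in all Mbtps1 lost its call under 11 and Pdia4 under 7 of the 17 alternatives. The chaperone list had a median of 1.13 beside 0.01 over all genes, with 3 of 18 called. Without replicate 3 at 3 DPI the calls numbered 20 (16 higher, 4 lower) and those of the chaperone list 10 of 18. Leaving out TRF2MuSC-cKO uninjured replicate 1, 2 or 4 or 3 DPI replicate 1 left 3 calls. Sdf2l1 and Manf were at 0 in replicate 3 and at 31.5 to 70.3 and 39.2 to 113 CPM in the 3 other injured libraries. Cell isolation response genes were lower in 12 of 17, macrophage markers higher in 9 of 10 and MuSC markers lower in 7 of 10.

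Whether the difference between 3 DPI and uninjured libraries varied with genotype was tested directly as the interaction over all 16 libraries. No member was called by edgeR, limma or DESeq2, and none of the 10 had an unadjusted p under 0.05, beside 0.0178% called and 5.74% with an unadjusted p under 0.05 among 16822 genes. For Hspa5, called in one genotype and not in the other, the difference was -0.18 (SE 0.32, 95% interval -0.84 to 0.49, adjusted p = 0.983). For Hsp90b1 it was 0.31 (SE 0.34, 95% interval -0.38 to 1.01), for Ppp1r15a 0.33 (SE 0.32, 95% interval -0.33 to 0.99) and for Herpud1 0.53 (SE 0.76, 95% interval -1.03 to 2.09). Without TRF2MuSC-cKO 3 DPI replicate 3 the differences were -0.20 for Hspa5, 0.28 for Hsp90b1, 0.18 for Ppp1r15a and 0.83 for Herpud1, none of them called. With each library left out in turn, the ranges were -0.35 to 0.0055 for Hspa5 and 0.14 to 0.50 for Hsp90b1. For Ppp1r15a and Herpud1 they were 0.12 to 0.59 and 0.11 to 0.83, again without a call. None of 115 pathway genes was called by edgeR (5 at an unadjusted p under 0.05), and 1, Gdf15, was called by each of limma and DESeq2.

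Within groups, some members varied together from library to library. Over the 16 libraries, the deviations of log2 CPM from the group means had a Pearson correlation of 0.83 between Hspa5 and Hsp90b1, and of 0.82 over the 15 libraries without TRF2MuSC-cKO 3 DPI replicate 3. Between Ddit3 and Herpud1, both at 0 in that replicate, it was 0.88 with it and 0.71 without. The lowest of the 45 pairs was Asns with Ppp1r15a (-0.38). Both genes of a pair share the depth and scaling of each library, and these values describe the libraries only. By levels over the 16 libraries, in which the differences between groups are included, and among 7054 genes of sufficient level, the genes closest to Hspa5 were Eno1 (Pearson r 0.94), Picalm (0.94), Hsp90b1 (0.93), Myh9 (0.93) and Hmox2 (0.93). Those closest to Atf4 were Ddx3x (0.93), Srrm1 (0.92), Gpbp1l1 (0.90), Irak1 (0.90) and Ppp2r2a (0.90).

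By level, the 4 groups of Atf4 ran from 216 CPM in uninjured control over 189 in uninjured TRF2MuSC-cKO and 180 in control at 3 DPI to 122 CPM in TRF2MuSC-cKO at 3 DPI, and each neighbour overlapped the next. For Hspa5 the order was control at 3 DPI, TRF2MuSC-cKO at 3 DPI, uninjured control and uninjured TRF2MuSC-cKO, again with every pair of neighbours overlapping. Hsp90b1 and Ppp1r15a each had 1 gap in their order, between the injury states. Herpud1 had its gap between uninjured control and control at 3 DPI, the next in order, while uninjured TRF2MuSC-cKO, further down, overlapped uninjured control by 1 library. The highest group mean was 1.77 times the lowest for Atf4, 2.08 times for Hspa5, 3.17 times for Hsp90b1, 3.59 times for Ppp1r15a and 3.23 times for Herpud1, and for Trib3 and Chac1 it was 1.32 and 1.21 times.

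On GRCm38 (GENCODE M21) some members share bases with other genes. Ppp1r15a (chr7:45522916-45526268, minus strand) overlaps Tulp2 on the plus strand. Ddit3 (chr10:127290774-127296288, plus strand) overlaps Mars and Gm4189 on the minus strand and a second record of its own symbol. Herpud1 (chr8:94386438-94395377, plus strand) overlaps the antisense gene Gm15890. Hsp90b1 (chr10:86690209-86705509, minus strand) overlaps the noncoding genes Gm15344 and Gm25745 on its own strand and 1810014B01Rik on the other. The kit keeps strand, but the strand setting of the counting is not given in the sources used here, so the counts of these 4 genes may include reads of their neighbours. Hspa5 (chr2:34771970-34777547), Atf4 (chr15:80255184-80257541) and Xbp1 (chr11:5520659-5525893), all on the plus strand, overlap no other annotated gene.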

How the data were processed

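RNA of sorted MuSCs was measured in 16 libraries, 4 per group. The authors depleted ribosomal RNA, primed at random sites (CORALL kit), trimmed the reads (Trim Galore 0.6.7 in the submitters' processing notes), aligned them to GRCm38 with STAR (2.6.1d in those notes), quantified them with Salmon (1.5.2) and deposited estimated counts per gene, without normalization. A second deposited table holds estimated counts rescaled by transcript abundance and served as an alternative. Whether molecular identifiers were collapsed is not given in the sources used here, so floors (3 counts, with a level of 95% for intervals) cover counting error of reads only.

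Counts were rounded. For each comparison the 8 libraries (all 16 for the interaction) passed through filterByExpr and TMM scaling. The test was edgeR's quasi-likelihood test in its robust form (edgeR 4.0.16, R 4.3.3), with Benjamini-Hochberg adjustment over all genes tested. Printed CPM are on 1 TMM scale over all 16 libraries, so their ratios can differ from the fitted fold changes. Log2 CPM had a prior count of 2. Alternatives were limma 3.58.1, DESeq2 1.42.0, median-of-ratios factors, library size alone, no filter, a block for replicate number, 1 fit of all 16 libraries, the rescaled table and leaving out each library. A term for the code in the library descriptions was added after seeing the data (for uninjured genotypes in a fit of all 16 libraries, since code and genotype coincide in the 8). The procedure was tested on simulated data. Library totals were 620506 to 1351130 counts. No 2 libraries of a group agreed within sampling noise.

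The members and lists were chosen with earlier results of these data known. Named are the 10 members, Terf2, the called pathway genes that average 3 or more in log2 CPM (at most 8 per direction and comparison), and the 5 genes, among those averaging 5 or more, whose levels correlated best with Hspa5 and with Atf4. Creb3, Gars, Aars, Canx, Creld2, Dnajc3, Syvn1, Derl3, Gdf15 in the interaction and marker genes were named after their values were seen. Lists were written by hand, and 118 pathway genes were matched by symbol. Promoters came from RefSeq (GRCm38.p6) and positions from GENCODE M21. Protein sequences were not used here.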

Additional observations from a re-analysis of the deposited data

Results flagged for a closer look

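Within a group, 2 of the 44 sets of 4 libraries examined (the 10 members and Terf2 in 4 groups) had 1 library far from the others, where chance gives about 1 in 20. Chac1 was 19.7 CPM in uninjured control replicate 1 and at most 10.8 CPM in the 3 others, from 9 to 22 counts. Ppp1r15a was 318 CPM in control 3 DPI replicate 3 and at most 231 CPM in the 3 others, and its fall after injury was called without that library as well.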

How the results depend on the processing

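Hspa5, Hsp90b1 and Ppp1r15a after injury in control MuSCs kept their calls under all 17 alternatives. No call of a member changed sign. Member calls in uninjured MuSCs went from 0 to 1 (Herpud1) with no filter and with the replicate block (-1.01, adjusted p = 0.0145), and from 0 to 1 when single libraries were left out. After injury in TRF2MuSC-cKO MuSCs they went from 2 to 1 with the rescaled table, to 0 with the block (Hsp90b1 1.36, adjusted p = 0.032; Ppp1r15a -1.49, adjusted p = 0.02002) or the description code as a term, and to 1 or 2 with single libraries left out. Pathway calls in uninjured MuSCs, 8, were 5 with limma or library size alone, 1 with all 16 libraries in 1 fit, 0 with the rescaled table or the code as a term and 4 to 6 with libraries left out. At 3 DPI they went from 0 to 1 with limma. After injury in controls, 30 became 13 with all 16 libraries and 14 with the code as a term. After injury in TRF2MuSC-cKO MuSCs, 5 became 10 with limma, 9 with DESeq2, 11 with all 16 libraries, 3 with the block, 2 with the rescaled table, 0 with the code as a term and 3 to 20 with libraries left out. In the interaction, 0 became 1 (Gdf15) with limma, DESeq2, median-of-ratios factors, library size alone and no filter, and 0 to 1 with libraries left out. The causes were not tested.

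With the code as a term, signs changed for Atf4 (1.58), Ddit3 (0.27), Hspa5 (0.036), Xbp1 (0.58), Slc7a5 (0.44), P4hb (0.25) and Bbc3 (-0.27) in uninjured MuSCs, Atf4 (0.13), Asns (0.73) and Hsp90b1 (0.000477) at 3 DPI, Atf4 (0.31) and Chac1 (0.31) after injury in controls and Chac1 (-0.64) in the interaction. None of these was called with that term. Other estimates that were not called and changed sign were, with library size alone, Atf4 (0.11), Ddit3 (0.17) and Hspa5 (0.13) in uninjured MuSCs, Chac1 (0.0504) after injury in controls and Xbp1 (0.0583) in TRF2MuSC-cKO MuSCs. Others were, with limma, Asns at 3 DPI (0.25) and Chac1 after injury in controls (0.21), and, with all 16 libraries, Xbp1 after injury in TRF2MuSC-cKO MuSCs (0.026). Ppp1r15a at 3 DPI was -0.0865 with no filter, -0.044 with all 16 libraries and -0.0291 with the rescaled table. With libraries left out, the ranges were -0.24 to 0.0369 (Atf4), -0.14 to 0.10 (Ddit3) and -0.24 to 0.0068 (Hspa5) in uninjured MuSCs, and -1.03 to 0.17 (Trib3), -0.33 to 0.27 (Asns) and -0.0667 to 0.12 (Ppp1r15a) at 3 DPI. They were -0.0453 to 0.34 (Trib3) and -0.23 to 0.15 (Chac1) after injury in controls, -0.23 to 0.20 (Xbp1) in TRF2MuSC-cKO MuSCs, and -0.35 to 0.0055 (Hspa5) and -0.27 to 0.0443 (Xbp1) in the interaction. Library size alone moved the median of all genes from 0.06 to 0.24 in uninjured MuSCs, where 212 genes were then lower and 176 higher in place of 370 and 82, and from 0.07 to 0.23 after injury in controls (1066 lower and 1989 higher in place of 1452 and 1652).

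Replicate numbers are shared by the groups, but the sources used here do not say that they pair the libraries. Same-numbered deviations correlated at -0.11 to 0.11. Between uninjured genotypes, TRF2MuSC-cKO replicates 2, 3 and 4 correlated best with their own number (0.11, 0.047 and 0.041) and replicate 1 did not. In the other comparisons no library correlated best with its own number. With the block, edgeR called 448 genes lower and 88 higher in uninjured MuSCs, 0 at 3 DPI, 1299 lower and 1538 higher after injury in controls, 144 lower and 220 higher (in place of 235 and 354) after injury in TRF2MuSC-cKO MuSCs and 1 lower in the interaction. With the code as a term it called 673 lower and 812 higher after injury in controls, 22 lower and 15 higher in TRF2MuSC-cKO MuSCs and 0 elsewhere. At 620506 counts or more per library, genes near 10 CPM rest on few counts, and their intervals span changes of 1 or more on the log2 scale.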

Other observations

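Gdf15, a secreted cytokine of the stress response, had the largest interaction estimate of the 115 pathway genes tested. In control MuSCs it was 16.1, 8.10, 19.8 and 14.6 CPM before injury and 137, 87.5, 114 and 114 CPM at 3 DPI, with no overlap. In TRF2MuSC-cKO MuSCs it was 54.4, 44.7, 37.2 and 36.8 CPM before and 57.3, 47.3, 12.4 and 37.3 CPM after injury (log2 fold change -0.24, SE 0.48, adjusted p = 0.884, edgeR). The interaction was -3.11 (SE 0.54, 95% interval -4.23 to -1.99, adjusted p = 0.0226), just outside the threshold. It was called under 6 of the 24 alternatives, by limma (adjusted p = 0.000763) and DESeq2 (1.2e-05), with median-of-ratios factors (0.0165), library size alone (0.00771) or no filter (0.00684), and without TRF2MuSC-cKO 3 DPI replicate 3 (0.000256). It was not called with the replicate block, the rescaled table, the code of the library descriptions as a term or any other library left out. Macrophage markers had interaction estimates below 0 in 10 of 10, and their part in the Gdf15 values was not tested. This gene was chosen after its values were seen.

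Among the pathway promoters with a RefSeq sequence, an ERSE was present in 4 of 14 ER chaperones and folding enzymes (Calr, Canx, Creld2 and Pdia6), and a CARE in 5 of 7 tRNA synthetases (Aars, Gars, Iars, Tars and Yars), beside 0.119% and 3.97% of all promoters. In the 250 bases before the start alone the CARE was in 3 of 7 (Iars and Yars no longer had it) beside 3.45%, and the 4 ERSE matches remained. All 4 of those chaperones were called higher after injury in control MuSCs, as were 12 of the 18 genes of their list in all, and of the 5 synthetases Aars (0.84) and Gars (1.00) were. An ERSE was also present in Dnajc3 (0.16) and Syvn1 (0.12), which were not called, and in Derl3, which was too low to be tested. A CARE was also present in 4 of 13 partners and stress factors, 3 of 14 genes of amino acid supply and 1 of 11 of ER-associated degradation. Vldlr, among those partners and stress factors, was called lower after injury in control MuSCs (-1.61). The elements were chosen as known ones of these arms, and no enrichment in these lists was tested.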
